A study of Mus musculus with 12 samples.

Results

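The comparison described here set cortistatin-deficient (Cort-/-) against wild-type (Cort+/+) primary brain endothelial cells (BECs) kept in normoxia and normoglycaemia (NX/NG), across every gene with a value. Its samples were chosen by genotype and environment: 2 Cort-/- and 3 Cort+/+ libraries, 5 of the 12 samples listed for the series and of the 10 with a column of values. Cort-/- replicate 3 under NX/NG is listed without processed values and was not analysed here. The series measured mRNA by stranded RNA-seq in BECs of both genotypes, under NX/NG or after oxygen-glucose deprivation with reoxygenation (OGD-R). All samples are labelled as C57BL/6 brain endothelial cells, and the 5 used here carry genotype KO or WT with treatment NM. A disease field shared by all samples names the MCAO stroke model, also for these cultures that were never deprived. The BECs were isolated from brain microvessels, enriched with puromycin, and pooled from several mice for each replicate. The labels do not describe the knockout allele.

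Cortistatin is a neuropeptide related to somatostatin that binds the somatostatin receptors and dampens inflammatory responses. Brain endothelial cells line the microvessels of the brain and form the blood-brain barrier. They join through tight and adherens junctions, carry selective nutrient and efflux transporters, and rest on a basement membrane that they share with pericytes. Fibrillar collagens are made mainly by fibroblasts and other mesenchymal cells.

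The libraries were even in size, with 12386048 to 12389289 reads on genes and 23763 to 24444 genes above 0 in each. Reads on the ribosomal RNA gene Rn18s-rs5 made up 7.64% to 15.3% of a library, and both extremes were Cort+/+ libraries. Values are in RPKM, the reads of a gene per kilobase of its length scaled to the size of the library. Defining endothelial genes were abundant in every library. Cdh5, which encodes VE-cadherin, the adherens junction protein of endothelium, lay at 582 and 681 RPKM in Cort-/- against 471, 443 and 592 RPKM in Cort+/+ libraries. Cldn5, the main claudin of the barrier, lay at 130.1 and 116 RPKM in Cort-/- against 106, 108 and 132 RPKM in Cort+/+ libraries. The smooth muscle actin Acta2 was abundant too, at 907 and 797 RPKM in Cort-/- against 1054, 1079.7 and 844 RPKM in Cort+/+ libraries. The groups overlapped for Cldn5 and Acta2, and for Cdh5 the higher Cort+/+ library lay between the Cort-/- libraries.

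The targeted gene was scarce in both genotypes. Cort had 0 reads in both Cort-/- libraries and 2, 1 and 1 reads in the Cort+/+ libraries. This lies within the 3 reads that a count of 0 allows, so the reads are too few to check the labels, and no fold change is given. Of the 12 genes of the cortistatin and somatostatin system, 5 had a value, and none passed the filter for testing of at least 1 RPKM in at least 2 libraries. Sstr4, a receptor of both peptides, lay at 0.341 and 0.221 RPKM in Cort-/- against 1.09, 0.962 and 0.731 RPKM in Cort+/+ libraries. For Sstr4 both Cort-/- libraries were below all Cort+/+ libraries, on 6 and 4 reads against 19, 18 and 12. The receptor Sstr2 lay at 0.605 and 0.698 RPKM in Cort-/- against 0.533, 0.32 and 1.17 RPKM in Cort+/+ libraries, and its groups overlapped.

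Across the 14220 genes tested of the 29965 with a row, limma on log2(RPKM + 0.1) called no gene at a false discovery rate (FDR) of 0.05 (0%), and the lowest FDR was 0.101. At an unadjusted p under 0.05, 1102 genes (7.75%) were lower and 771 genes (5.42%) were higher in Cort-/- BECs. The median log2 fold change was 0.01. Both Cort-/- libraries lay below all Cort+/+ libraries for 2350 genes (16.5%) and above them for 2306 genes (16.2%).

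The steps of the deposited RPKM allowed read counts to be recovered. On those reads limma-voom, an alternative to the main test, called 48 genes lower (0.338%) and 5 genes higher (0.0352%) at an FDR of at most 0.05. For each of these 53 genes the libraries of the genotypes did not overlap. The number of limma-voom calls depended on single libraries. It was 3 without Cort+/+ replicate 2, 5 without Cort-/- replicate 2, 7 without Cort-/- replicate 1, 13 without Cort+/+ replicate 1, and 882 without Cort+/+ replicate 3. Among genes with an unadjusted p under 0.05, Cort+/+ replicate 3 lay between the Cort-/- mean and the other Cort+/+ libraries for 77.7%, against 20.8% for replicate 1 and 42.0% for replicate 2. Pearson's r across the genes tested was 0.948 between the Cort-/- libraries, 0.948 to 0.952 between Cort+/+ libraries and 0.936 to 0.949 between libraries of different genotype. Genotype therefore did not separate the libraries clearly over all genes.

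Differences of at least 1 on the log2 scale, with libraries that did not overlap, were seen for 187 genes lower and 60 genes higher in Cort-/- BECs. Of the lower genes, 104 were protein-coding, and their median length was 1681 bases. Of the higher genes, 7 were protein-coding, and their median length was 107 bases, against 3608 bases over all genes tested. Of all 14220 genes tested, 10999 were protein-coding. Genes under 300 bases made up 60 of the 187 lower and 41 of the 60 higher genes, against 1139 of all genes tested. Short RNAs were thus frequent in both sets. The median of the highest read count in any library was 84 for the lower genes and 5 for the higher genes, so most of the higher set rested on a few reads on short RNAs.

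Tnfrsf1b encodes TNFR2, a receptor of tumour necrosis factor, and lay at 2.69 and 3.09 RPKM in Cort-/- against 8.76, 8.31 and 10.2 RPKM in Cort+/+ libraries. Its log2 fold change was -1.62 ± 0.12 (SE from limma, as for the genes that follow), with an FDR of 0.101 in limma and 0.0152 in limma-voom. Pdpn encodes podoplanin, a glycoprotein of lymphatic endothelium and mesenchymal cells that binds CLEC-2 on platelets, and lay at 4.59 and 2.6 RPKM in Cort-/- against 23, 18.1 and 18.4 RPKM in Cort+/+ libraries. The group means were 5.53-fold apart, the widest gap among the 15 lower genes with the lowest limma-voom p (log2 fold change -2.48 ± 0.26, limma-voom FDR 0.0183). Cd109, a membrane protein that restrains TGF-beta signalling, lay at 19.4 and 20.9 RPKM in Cort-/- against 35.6, 36.2 and 34.4 RPKM in Cort+/+ libraries. Its limma-voom FDR, 0.0128, was the lowest among the lower genes. Tnfrsf11b, which encodes osteoprotegerin, the decoy receptor of RANKL, lay at 1.29 and 1.4 RPKM in Cort-/- against 3.44, 3.35 and 3.29 RPKM in Cort+/+ libraries (log2 fold change -1.26 ± 0.10, limma-voom FDR 0.0293). In each of these genes the gap between the genotypes was wider than the range within either genotype. They were picked by low p, which favours such gaps.

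Cryab, a small heat shock protein, lay at 43.3 and 36 RPKM in Cort-/- against 92.4, 86.2 and 80.7 RPKM in Cort+/+ libraries (log2 fold change -1.13 ± 0.10, limma-voom FDR 0.0152). Aqp1, a water channel, lay at 2.003 and 2.34 RPKM in Cort-/- against 8.54, 7.18 and 6.8 RPKM in Cort+/+ libraries (log2 fold change -1.74 ± 0.13, limma-voom FDR 0.0183). Cdh11, a cadherin typical of mesenchymal cells, lay at 15.6 and 12.4 RPKM in Cort-/- against 31.5, 32.1 and 28 RPKM in Cort+/+ libraries (log2 fold change -1.13 ± 0.12, limma-voom FDR 0.0183). These differences were about equal in size for Cryab and Cdh11 and wider for Aqp1. Cemip, which takes part in hyaluronan breakdown, lay at 5.13 and 6.19 RPKM in Cort-/- against 21.2, 19.7 and 14.5 RPKM in Cort+/+ libraries (log2 fold change -1.68 ± 0.19). Dkk3, a secreted protein of the Dickkopf family, lay at 6.05 and 6.32 RPKM in Cort-/- against 15.6, 12.5 and 13.3 RPKM in Cort+/+ libraries (log2 fold change -1.14 ± 0.11). Sdc2, the heparan sulfate proteoglycan syndecan-2, lay at 13.9 and 13.3 RPKM in Cort-/- against 22.2, 21.3 and 20.7 RPKM in Cort+/+ libraries (log2 fold change -0.65 ± 0.06). The other genes among the 15 were Tmem119, Cpxm1, Adamts1, Loxl1, Cacna1c and Prrx2, with log2 fold changes from -1.65 to -0.86.

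Some wide differences were less even within a genotype. Rab6b, a small GTPase of Golgi transport best known from neurons, lay at 0.241 and 0.188 RPKM in Cort-/- against 3.96, 1.997 and 3.45 RPKM in Cort+/+ libraries (log2 fold change -3.31 ± 0.34, limma-voom FDR 0.084). The Cort-/- values rest on at most 15 reads. Spp1, which encodes the secreted phosphoprotein osteopontin, lay at 358 and 526 RPKM in Cort-/- against 799, 924 and 1025 RPKM in Cort+/+ libraries (log2 fold change -1.07 ± 0.20, limma-voom FDR 0.0539). Mgp encodes matrix Gla protein, an inhibitor of calcification and of BMP signalling, and lay at 35.1 and 161 RPKM in Cort-/- against 179, 218 and 239 RPKM in Cort+/+ libraries. Its groups did not overlap, but the Cort-/- libraries lay far apart, and its log2 fold change of -1.48 ± 0.63 had a limma FDR of 0.403.

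**Figure D1:**
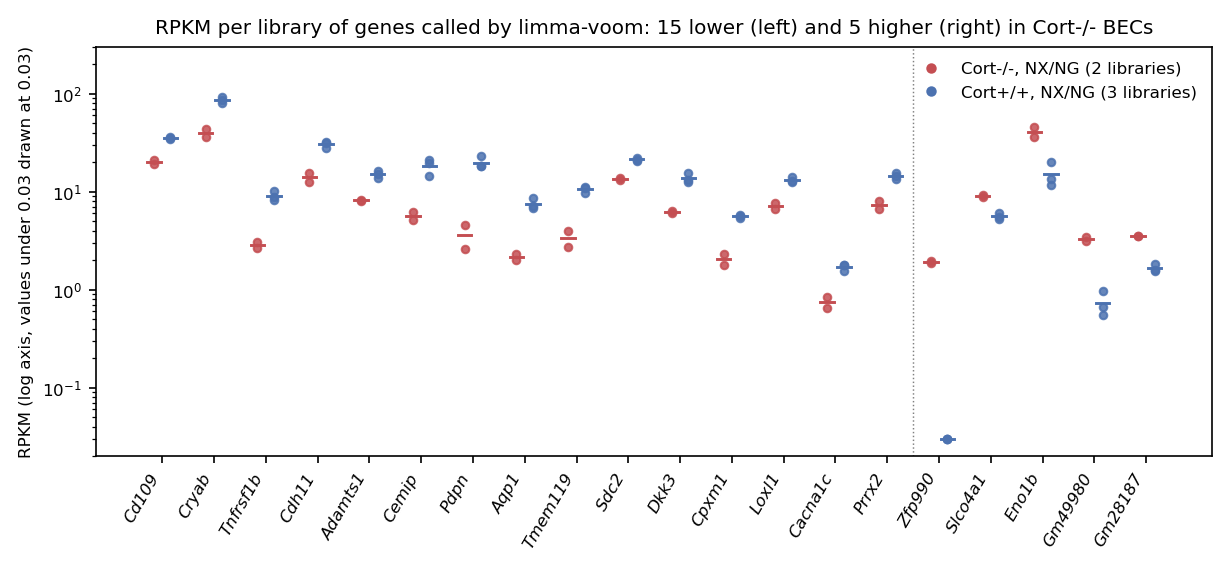
RPKM per library (log axis) of the 15 genes lower (left of the dotted line) and the 5 genes higher (right) in Cort-/- BECs with the lowest limma-voom p; each point is 1 library and each bar the group mean. In every gene the 2 Cort-/- points and the 3 Cort+/+ points do not overlap, and Zfp990 has 0 RPKM in all 3 Cort+/+ libraries, drawn at the lower end of the axis.

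Promoter sequences are shown for 2 collagen genes that were lower together, and for Pdpn and Tnfrsf1b, which limma-voom called lower in Cort-/- BECs. Each is the window of 250 bases before a RefSeq gene start (GRCm38.p6, strand of the gene), in lower case. Capitals mark a match, on either strand, to 1 of 3 motifs, which do not overlap in these windows. A CCAAT box was searched as CCAAT. The TATA box was TATAAA. The GC box was GGGCGG. The windows lie at chr6:4505368-4505617 (plus strand) for Col1a2, chr10:76726045-76726294 (minus strand) for Col6a1, chr4:143299565-143299814 (minus strand) for Pdpn and chr4:145246871-145247120 (minus strand) for Tnfrsf1b.
Col1a2: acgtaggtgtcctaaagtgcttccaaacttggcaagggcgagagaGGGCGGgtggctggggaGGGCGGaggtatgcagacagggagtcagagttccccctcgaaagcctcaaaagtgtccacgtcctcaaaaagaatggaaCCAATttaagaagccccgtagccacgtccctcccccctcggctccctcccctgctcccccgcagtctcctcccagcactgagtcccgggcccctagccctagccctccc
Col6a1: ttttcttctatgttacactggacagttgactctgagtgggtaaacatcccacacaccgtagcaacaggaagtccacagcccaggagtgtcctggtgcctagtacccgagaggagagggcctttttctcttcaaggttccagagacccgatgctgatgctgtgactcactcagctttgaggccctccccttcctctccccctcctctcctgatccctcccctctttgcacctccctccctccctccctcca
Pdpn: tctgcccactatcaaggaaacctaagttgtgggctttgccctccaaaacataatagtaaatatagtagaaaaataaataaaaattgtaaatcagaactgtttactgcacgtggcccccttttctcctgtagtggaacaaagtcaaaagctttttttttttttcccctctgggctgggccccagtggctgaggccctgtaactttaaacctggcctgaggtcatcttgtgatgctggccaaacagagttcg
Tnfrsf1b: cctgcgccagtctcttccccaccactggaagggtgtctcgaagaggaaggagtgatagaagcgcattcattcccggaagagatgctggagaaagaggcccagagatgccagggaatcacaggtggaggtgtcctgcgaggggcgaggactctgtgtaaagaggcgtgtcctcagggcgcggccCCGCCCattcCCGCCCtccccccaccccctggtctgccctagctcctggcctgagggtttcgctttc

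Col1a2 held 1 CCAAT box and 2 GC boxes, Tnfrsf1b held 2 GC boxes, and none of the 3 motifs was found in the windows of Col6a1 and Pdpn. Of the genes tested, 9380 had a promoter in the RefSeq table, and 36.7% of these held a CCAAT box, 60.7% a GC box and 6.16% a TATA box. Of the 709 genes lower in Cort-/- BECs at an unadjusted p under 0.05 with a promoter, 36.5% held a CCAAT box, 61.9% a GC box and 6.77% a TATA box. The letters were thus about as frequent in the lower genes as in all genes. The AP-1 letters TGACTCA stood in 3.67% of the lower and 6.02% of the higher genes, against 2.95% of all. A match of letters is a description only. Col1a1 and Cdh11 had no entry in this table.

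The 5 genes higher in Cort-/- BECs by limma-voom were of several kinds. Zfp990, a zinc finger gene of chromosome 4, had 81 and 88 reads in the Cort-/- libraries and 0 reads in all 3 Cort+/+ libraries. It was at least 25.9-fold higher, against a floor of 3 reads in a Cort+/+ library (limma-voom FDR 0.0128). Zfp990 belongs to a cluster of similar zinc finger genes, so its reads may be shared with copies. Slco4a1, an organic anion transporter that also carries thyroid hormones, lay at 9.35 and 8.77 RPKM in Cort-/- against 5.23, 5.52 and 6.02 RPKM in Cort+/+ libraries (log2 fold change 0.69 ± 0.08, limma-voom FDR 0.0293). Eno1b, a near copy of the enolase gene Eno1, lay at 45.7 and 36.1 RPKM in Cort-/- against 11.6, 13.3 and 20.2 RPKM in Cort+/+ libraries (log2 fold change 1.46 ± 0.26). Eno1 itself lay at 89.1 and 78.1 RPKM in Cort-/- against 103, 102 and 98 RPKM in Cort+/+ libraries. The copies thus differed in opposite directions, and how the counting split reads between them is not given in the sources used here, so both values are uncertain. The long noncoding RNA Gm28187 lay at 3.53 and 3.5 RPKM in Cort-/- against 1.57, 1.6 and 1.83 RPKM in Cort+/+ libraries. The transcript Gm49980 lay at 3.42 and 3.13 RPKM in Cort-/- against 0.552, 0.965 and 0.66 RPKM in Cort+/+ libraries.

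Collagen genes differed by class. Of 44 chains listed, 41 had a value and 22 were tested. At an unadjusted p under 0.05, 10 were lower and 1 was higher, where the shares over all genes tested were 7.75% and 5.42%. Their median log2 fold change was -0.63, and limma-voom called 5. Of the 8 fibril-forming chains, 6 were lower at an unadjusted p under 0.05, and the median was -0.97. Col1a1, a chain of type I collagen, lay at 67.5 and 46.5 RPKM in Cort-/- against 155, 166 and 113 RPKM in Cort+/+ libraries (log2 fold change -1.35 ± 0.23, limma-voom FDR 0.0458). Its partner chain Col1a2 lay at 24.7 and 15 RPKM in Cort-/- against 55.5, 56.5 and 42.9 RPKM in Cort+/+ libraries (log2 fold change -1.41 ± 0.24, limma-voom FDR 0.0468). The groups did not overlap for either chain, and Cort+/+ replicate 3 was nearest to the Cort-/- libraries. Col3a1, the chain of type III collagen, lay at 27.4 and 20.8 RPKM in Cort-/- against 60.7, 54.9 and 35.9 RPKM in Cort+/+ libraries (log2 fold change -1.04 ± 0.26) and missed the limma-voom threshold (FDR 0.101). Col11a1, a minor fibril chain, lay at 1.19 and 1.15 RPKM in Cort-/- against 3.14, 3.33 and 2.37 RPKM in Cort+/+ libraries and was called by limma-voom (FDR 0.0351).

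All 7 tested chains of microfibrillar, fibril-associated and other collagens had a negative log2 fold change, with a median of -1.12. Type VI chains surround cells as beaded microfibrils. Col6a1 lay at 35.6 and 25.1 RPKM in Cort-/- against 68, 67.2 and 60.4 RPKM in Cort+/+ libraries. Col6a2 lay at 6.19 and 3.84 RPKM in Cort-/- against 12, 13.4 and 15 RPKM in Cort+/+ libraries. Both were called by limma-voom (FDR 0.0293 and 0.0305), and Col6a3 had a log2 fold change of -1.40 ± 0.32 without a call. Col10a1 lay at 0.0776 and 7.74 RPKM in Cort-/- against 1.28, 7.59 and 10.4 RPKM in Cort+/+ libraries, so it differed more within than between genotypes.

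The 7 basement membrane chains had a median of 0.12. Col4a1, an abundant type IV chain of the vascular basement membrane, lay at 579.6 and 578 RPKM in Cort-/- against 504, 525 and 565 RPKM in Cort+/+ libraries. Its partner Col4a2 lay at 488 and 468 RPKM in Cort-/- against 409, 431 and 484 RPKM in Cort+/+ libraries. Col18a1, the source of endostatin, lay at 179 and 199 RPKM in Cort-/- against 140.1, 161 and 169 RPKM in Cort+/+ libraries and was the 1 chain higher at an unadjusted p under 0.05. Summed over all chains, collagen RPKM was 1590.4 and 1524 in the Cort-/- and 1606 to 1718 in the Cort+/+ libraries, and Col4a1 and Col4a2 made up most of each sum.

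**Figure D2:**
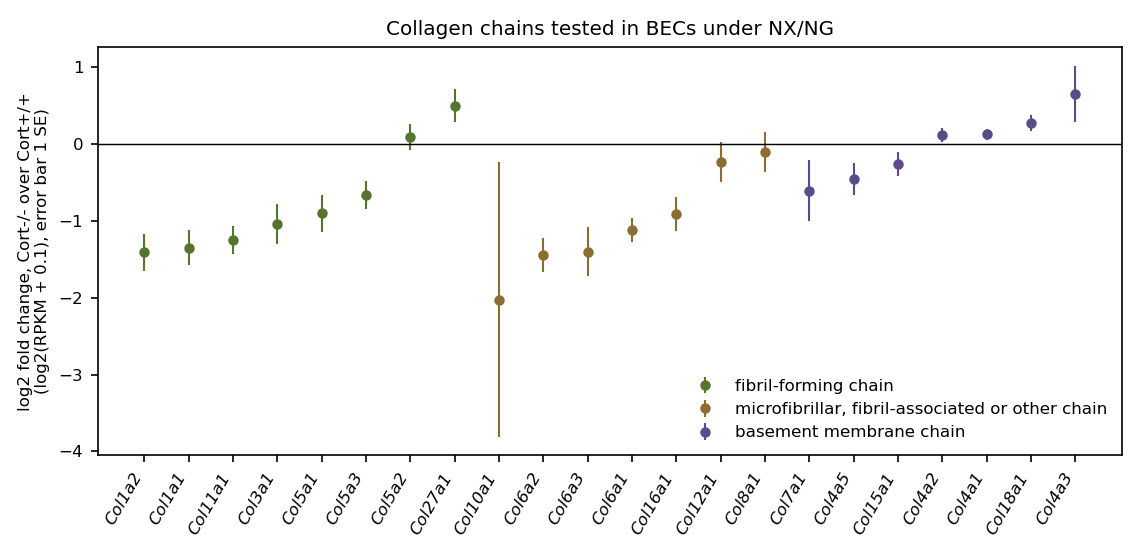
Log2 fold change of Cort-/- over Cort+/+ BECs for the 22 collagen chains tested, on the log2(RPKM + 0.1) scale, with error bars of 1 SE from limma; colours mark the class of chain. Of the 8 fibril-forming chains 6 lie below 0, all 7 microfibrillar and other chains lie below 0, and the 7 basement membrane chains lie around a median of 0.12.

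Among the enzymes that act on collagen, 7 of 10 propeptide and crosslink enzymes tested were lower at an unadjusted p under 0.05, none was higher, and limma-voom called 3. Of 14 hydroxylases and chaperones, 4 were lower and none was higher, where the shares over all genes tested were 7.75% and 5.42%. Loxl1, a lysyl oxidase that crosslinks elastin and collagen, lay at 7.74 and 6.71 RPKM in Cort-/- against 14.2, 13 and 12.5 RPKM in Cort+/+ libraries (log2 fold change -0.86 ± 0.09, limma-voom FDR 0.0275). Its relative Loxl3 lay at 5.12 and 5.18 RPKM in Cort-/- against 7.87, 7.42 and 7.67 RPKM in Cort+/+ libraries (log2 fold change -0.56 ± 0.06). Adamts2, which removes the amino-terminal propeptide of procollagen, lay at 1.5 and 1.15 RPKM in Cort-/- against 2.68, 2.62 and 2.67 RPKM in Cort+/+ libraries (log2 fold change -0.96 ± 0.14). The groups did not overlap for these 3 enzymes. The collagen chaperone Serpinh1 lay at 249 and 241 RPKM in Cort-/- against 262, 263 and 244 RPKM in Cort+/+ libraries, with overlapping groups.

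Of the 28 elastic fibre and adhesive glycoproteins tested, 15 were lower and 3 were higher at an unadjusted p under 0.05. Among all genes tested, 7.75% were lower and 5.42% higher. The median log2 fold change of the 28 was -0.63. Of 5 proteoglycans, 3 were lower (median -0.74), and the median of 12 basement membrane genes was 0.08. Bgn, which encodes biglycan, lay at 124 and 104 RPKM in Cort-/- against 211, 198 and 167 RPKM in Cort+/+ libraries (log2 fold change -0.74 ± 0.13, limma-voom FDR 0.0539). Thbs3, a thrombospondin of connective tissue, lay at 1.16 and 0.914 RPKM in Cort-/- against 2.71, 2.21 and 2.48 RPKM in Cort+/+ libraries and was called by limma-voom (FDR 0.0449). The most abundant members, Fn1 and Thbs1, were on the higher side, while Spp1 and Mgp, abundant members described above, were lower. Fn1, which encodes fibronectin, lay at 2593 and 2598 RPKM in Cort-/- against 2042, 2131 and 2335 RPKM in Cort+/+ libraries (log2 fold change 0.26 ± 0.10, limma FDR 0.37). Thbs1, which encodes thrombospondin-1, lay at 1423 and 1608 RPKM in Cort-/- against 1029.7, 1284 and 1232 RPKM in Cort+/+ libraries (log2 fold change 0.36 ± 0.13, limma FDR 0.355).

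Among matrix proteases and their inhibitors, 8 of 23 tested were lower and 1 was higher at an unadjusted p under 0.05. The shares over all genes tested were 7.75% and 5.42%, and the median log2 fold change of the list was -0.44. Mmp2, a gelatinase that cleaves basement membrane, lay at 46.6 and 45.9 RPKM in Cort-/- against 75.4, 81.2 and 61 RPKM in Cort+/+ libraries. Timp1, an inhibitor of metalloproteinases, lay at 84.2 and 80.3 RPKM in Cort-/- against 149, 124 and 119.5 RPKM in Cort+/+ libraries. Timp3, an inhibitor held in the matrix, lay at 23.2 and 24.8 RPKM in Cort-/- against 32.6, 43.2 and 34.2 RPKM in Cort+/+ libraries. Protease and inhibitors were lower in the same libraries, with no overlap of the groups. Adamts1, which cleaves versican, lay at 8.25 and 8.1 RPKM in Cort-/- against 16.3, 15.2 and 13.9 RPKM in Cort+/+ libraries (log2 fold change -0.88 ± 0.08, limma-voom FDR 0.0183).

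Markers of mesenchymal cells differed in the same direction. The summed level of 15 fibroblast markers was 269 and 212 RPKM in the Cort-/- libraries against 488, 480 and 359 RPKM in the Cort+/+ libraries. All 9 tested had a negative log2 fold change (median -1.04), and 4 of these 9 are collagen chains already described. Lum and Dpt, which are defining fibroblast markers, had at most 3 reads in every library. For pericytes, the sum of 11 markers was 10.5 and 13.1 against 21.9, 26.6 and 21.7 RPKM. All 5 pericyte markers tested were negative (median -0.86), and Kcnj8, Abcc9, Higd1b, Ndufa4l2 and Atp13a5 had at most 3 reads in every library. Cspg4, the proteoglycan NG2, lay at 0.679 and 1.36 RPKM in Cort-/- against 3.55, 4.08 and 4.13 RPKM in Cort+/+ libraries (log2 fold change -1.91 ± 0.28, limma-voom FDR 0.0293). Pdgfrb, the PDGF receptor through which pericytes are held to vessels, lay at 5.17 and 7.66 RPKM in Cort-/- against 12.1, 13.5 and 12.6 RPKM in Cort+/+ libraries (log2 fold change -1.0 ± 0.17, limma-voom FDR 0.0454). The groups did not overlap for either gene.

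Leptomeningeal markers summed to 37.7 and 34.5 against 54, 53.6 and 38.7 RPKM. Smooth muscle markers summed to 1689 and 1415 against 1914, 1939 and 1601 RPKM, with a median log2 fold change of 0.06 over 10 tested. Actg2, a smooth muscle actin, lay at 14.4 and 11.1 RPKM in Cort-/- against 57.8, 42.8 and 35.7 RPKM in Cort+/+ libraries (log2 fold change -1.81 ± 0.23, limma-voom FDR 0.0326). In bulk RNA, fewer cells of a type and less RNA per cell cannot be told apart. The part of other cell types in the matrix differences was not tested.

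The 18 brain endothelial markers summed to 1669.9 and 1802 RPKM in the Cort-/- libraries against 1302, 1355 and 1624 RPKM in the Cort+/+ libraries. Their median log2 fold change was 0.24 over 16 tested. At an unadjusted p under 0.05, 2 were higher and none was lower, against 5.42% and 7.75% of all genes tested. Erg, a transcription factor that keeps endothelial identity, lay at 100.3 and 109 RPKM in Cort-/- against 64.5, 66.2 and 91.6 RPKM in Cort+/+ libraries. Emcn, the sialomucin endomucin, lay at 175 and 189 RPKM in Cort-/- against 125, 159 and 143 RPKM in Cort+/+ libraries. For these genes both Cort-/- libraries were above all Cort+/+ libraries. Cort+/+ replicate 3 had the highest endothelial sum and the lowest fibroblast sum of its group. Without it the median was -1.27 for the fibroblast list and 0.33 for the endothelial list.

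Epithelial markers were high in 1 library, at 74.2 RPKM in Cort+/+ replicate 2 against 13.5 to 22.97 RPKM in the other libraries. Krt18, a keratin of simple epithelia, lay at 4.4 and 10.5 RPKM in Cort-/- against 3.8, 26 and 3.38 RPKM in Cort+/+ libraries. Some markers of other brain cells and of leukocytes had at most 3 reads in every library. Of the listed markers with a value, these were 7 of 13 for macrophages and microglia, 2 of 8 for astrocytes, 2 of 8 for neurons and 4 of 6 for oligodendrocytes. They were Ptprc, Itgam, Cx3cr1, P2ry12, C1qb, C1qc and Fcgr3 for macrophages and microglia, Aqp4 and Gli1 for astrocytes, Rbfox3 and Syt1 for neurons, and Olig1, Mog, Mag and Sox10 for oligodendrocytes. The summed level of the macrophage and microglia list was 7.51 and 8.72 RPKM in the Cort-/- libraries against 13.6, 14.9 and 14.3 RPKM in the Cort+/+ libraries. For astrocytes it was 12.6 and 10.6 against 20.6, 15.7 and 15.5 RPKM, and for neurons 5.998 and 7.56 against 11.2, 11.7 and 8.41 RPKM. These 3 sums were lower in both Cort-/- libraries, but a single gene carried the gap for macrophages and for astrocytes. For macrophages and microglia it was Tmem119, and 2 of the 3 tested members of that list had a positive log2 fold change (median 0.23). For astrocytes it was Gja1, at 10.4 and 7.77 RPKM in Cort-/- against 18.6, 13.5 and 13.5 RPKM in Cort+/+ libraries. The part of these lists in the other differences was not tested. Tmem119, known from microglia and also from osteoblasts, lay at 2.73 and 4.01 RPKM in Cort-/- against 9.79, 11 and 11.1 RPKM in Cort+/+ libraries (log2 fold change -1.65 ± 0.17, limma-voom FDR 0.0183).

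**Figure D3:**
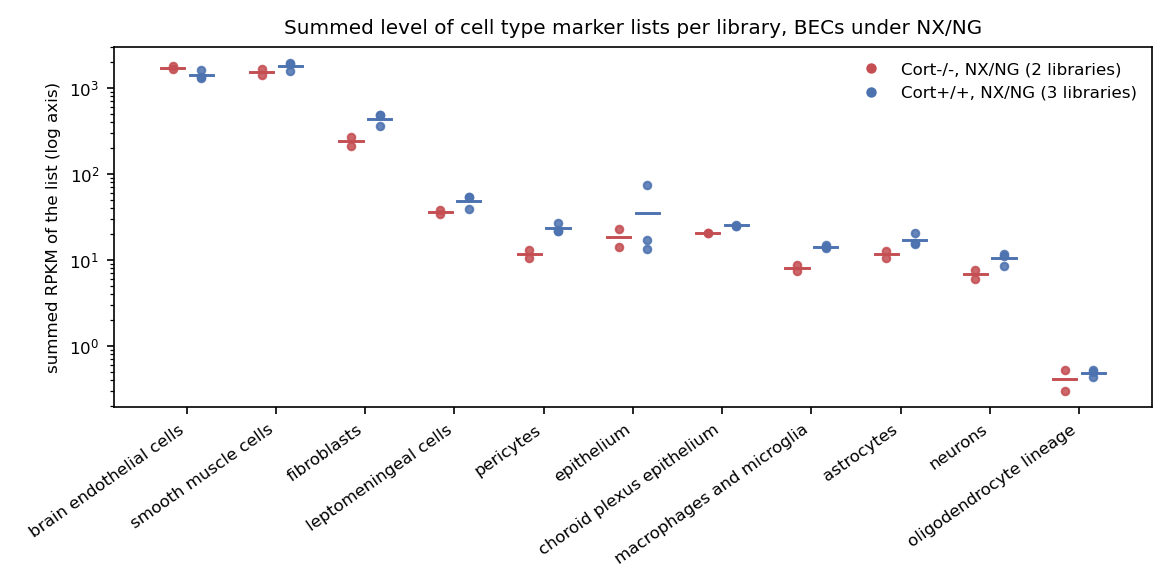
Summed RPKM of each cell type marker list per library (log axis); each point is 1 library and each bar the group mean. Fibroblast, leptomeningeal, pericyte, macrophage, astrocyte, neuron and choroid plexus sums are lower in both Cort-/- libraries than in all 3 Cort+/+ libraries, the endothelial sum is higher in both, and 1 Cort+/+ library stands apart for epithelium. The macrophage, astrocyte and choroid plexus gaps each rest on a single gene, Tmem119, Gja1 and Aqp1 in turn.

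Junction genes lay on both sides. Of 27 tested, 4 were lower and 4 were higher at an unadjusted p under 0.05, against 7.75% and 5.42% of all genes. Limma-voom called 1 of the 27, Cdh11. The 12 tight junction genes had a median log2 fold change of 0.22. F11r, the junctional adhesion molecule JAM-A, lay at 75.3 and 86.8 RPKM in Cort-/- against 60.1, 58.6 and 67.7 RPKM in Cort+/+ libraries (log2 fold change 0.38 ± 0.10, limma FDR 0.288). Cldn1, a claudin at low level in these cells, lay at 2.81 and 4.88 RPKM in Cort-/- against 1.53, 1.54 and 2.04 RPKM in Cort+/+ libraries (log2 fold change 1.09 ± 0.27, limma FDR 0.282). For F11r and Cldn1 the groups did not overlap. Gja1, the gap junction protein connexin 43, lay at 10.4 and 7.77 RPKM in Cort-/- against 18.6, 13.5 and 13.5 RPKM in Cort+/+ libraries (log2 fold change -0.73 ± 0.20, limma FDR 0.296).

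Barrier transporters had a median log2 fold change of 0.00 over 32 tested. At an unadjusted p under 0.05, 5 were lower and 2 were higher, against 7.75% and 5.42% of all genes tested. Besides Aqp1 and Slco4a1, limma-voom called the prostaglandin transporter Slco2a1, which lay at 0.604 and 0.563 RPKM in Cort-/- against 1.2, 1.11 and 1.11 RPKM in Cort+/+ libraries (log2 fold change -0.86 ± 0.23, FDR 0.0305). Lrp1, an endocytic receptor that also clears amyloid beta, lay at 27.2 and 20.2 RPKM in Cort-/- against 50.6, 50.5 and 36.6 RPKM in Cort+/+ libraries (log2 fold change -0.95 ± 0.20, limma-voom FDR 0.0787). The groups did not overlap for Lrp1, although limma-voom did not call it. The glucose transporter Slc2a1 lay at 48.5 and 41.9 RPKM in Cort-/- against 33.3, 30.6 and 43.9 RPKM in Cort+/+ libraries, with overlapping groups.

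Endothelial transcription factors had a median of 0.19 over 23 tested. At an unadjusted p under 0.05, 4 were lower and 5 were higher, against 7.75% and 5.42% of all genes tested. The venous factor Nr2f2 lay at 2.79 and 2.51 RPKM in Cort-/- against 5.54, 5.14 and 4.1 RPKM in Cort+/+ libraries (log2 fold change -0.86 ± 0.15). Klf4, which is induced by flow, lay at 8.34 and 5.78 RPKM in Cort-/- against 15.6, 15 and 10.8 RPKM in Cort+/+ libraries (log2 fold change -0.96 ± 0.22). Both were lower in both Cort-/- libraries than in any Cort+/+ library.

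In the insulin-like growth factor list, 6 of 13 tested were lower and none was higher at an unadjusted p under 0.05. The shares over all genes tested were 7.75% and 5.42%. By class, 4 of 8 binding proteins, 1 of 2 ligands and 1 of 3 receptors tested were lower. Igfbp5, a secreted binding protein of IGF, lay at 5.3 and 12.1 RPKM in Cort-/- against 28.8, 36.1 and 34 RPKM in Cort+/+ libraries and was called by limma-voom (log2 fold change -2.02 ± 0.35, FDR 0.0407). Igfbp4 lay at 42.8 and 26.4 RPKM in Cort-/- against 91.7, 73.5 and 77.7 RPKM in Cort+/+ libraries (log2 fold change -1.26 ± 0.22, limma-voom FDR 0.0509). Igfbp6 lay at 10.8 and 11 RPKM in Cort-/- against 25.5, 18.1 and 19.3 RPKM in Cort+/+ libraries (log2 fold change -0.92 ± 0.16). All Cort-/- values were below all Cort+/+ values for these 3 binding proteins. Igfbp2 lay at 1.62 and 15 RPKM in Cort-/- against 6.67, 5.93 and 3.24 RPKM in Cort+/+ libraries, with Cort-/- libraries far apart. Igf2, the fetal growth factor expressed from the paternal copy, lay at 0.849 and 0.715 RPKM in Cort-/- against 2.64, 1.98 and 4.98 RPKM in Cort+/+ libraries (log2 fold change -1.80 ± 0.40, limma FDR 0.264).

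Of the imprinted growth regulators, 8 of 17 tested were lower and none was higher at an unadjusted p under 0.05. The shares over all genes tested were 7.75% and 5.42%, and the median log2 fold change of the list was -0.50. Igf2 and H19 belong to this list too. H19, a noncoding RNA beside Igf2, lay at 15.1 and 7.48 RPKM in Cort-/- against 38.6, 21 and 23.9 RPKM in Cort+/+ libraries (log2 fold change -1.33 ± 0.39, limma FDR 0.313). Grb10, an adaptor that dampens insulin and IGF receptors, lay at 17.7 and 18.6 RPKM in Cort-/- against 30.2, 24.3 and 22.9 RPKM in Cort+/+ libraries. The groups did not overlap for either. Without Cort-/- replicate 2 the median of the list was -0.29.

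In the TGF-beta and BMP list, 10 of 41 tested were lower and 2 were higher at an unadjusted p under 0.05. The shares over all genes tested were 7.75% and 5.42%. The list had a median of -0.12 and no limma-voom call. Grem1, a secreted BMP antagonist, lay at 2.87 and 3.57 RPKM in Cort-/- against 6.21, 5.36 and 6.98 RPKM in Cort+/+ libraries (log2 fold change -0.92 ± 0.15). The receptor Bmpr1a lay at 4.13 and 4.52 RPKM in Cort-/- against 8.93, 7.56 and 6.12 RPKM in Cort+/+ libraries (log2 fold change -0.77 ± 0.17). Id2, a target of BMP signalling, lay at 6.54 and 5.36 RPKM in Cort-/- against 12.9, 12.4 and 9.32 RPKM in Cort+/+ libraries (log2 fold change -0.94 ± 0.17). These genes were lower without overlap, with limma FDRs of 0.208, 0.264 and 0.215. Of the 10 receptors tested, 4 had a negative log2 fold change.

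In the Wnt list, 6 of 23 tested were lower and 2 were higher at an unadjusted p under 0.05 (median -0.01). The shares over all genes tested were 7.75% and 5.42%, and limma-voom called 1 gene of the list, Dkk3. Fzd1, a Wnt receptor, lay at 2.87 and 2.08 RPKM in Cort-/- against 3.89, 3.75 and 4.07 RPKM in Cort+/+ libraries (log2 fold change -0.65 ± 0.15). Frzb, a secreted Wnt antagonist, lay at 23.2 and 23.7 RPKM in Cort-/- against 15.7, 15.9 and 19.5 RPKM in Cort+/+ libraries (log2 fold change 0.47 ± 0.11). Neither gene overlapped between the groups, and their limma FDRs were 0.269 and 0.274. They were picked by low p, and of the 13 receptors tested 8 had a negative log2 fold change (median -0.08).

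In the VEGF, angiopoietin, PDGF and FGF list, 9 of 25 tested were lower and 2 were higher at an unadjusted p under 0.05 (median -0.03). Among all genes tested, 7.75% were lower and 5.42% higher. Vegfa, the main VEGF ligand, lay at 5.05 and 5.09 RPKM in Cort-/- against 9.06, 9.79 and 7.06 RPKM in Cort+/+ libraries (log2 fold change -0.74 ± 0.15, limma-voom FDR 0.0903). Angpt2, the endothelial ligand that antagonises TIE2 signalling, lay at 294 and 399 RPKM in Cort-/- against 210.0, 189.5 and 302 RPKM in Cort+/+ libraries, with overlapping groups. In the Notch list, 3 of 13 tested were lower and 1 was higher, against the same shares of 7.75% and 5.42%. Notch3, the receptor of mural cells, lay at 1.02 and 1.03 RPKM in Cort-/- against 2.35, 2.19 and 1.43 RPKM in Cort+/+ libraries (limma FDR 0.313). Notch4, the receptor of endothelium, lay at 43.7 and 45.9 RPKM in Cort-/- against 30.3, 28.4 and 40.5 RPKM in Cort+/+ libraries (limma FDR 0.354). These receptors differed in opposite directions, each without overlap.

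Among chemokines, cytokines and their receptors, 2 of 22 tested were lower and 2 were higher at an unadjusted p under 0.05, against 7.75% and 5.42% of all genes tested. The median was 0.01, and limma-voom called 1, Tnfrsf1b. Ccl2, which recruits monocytes, lay at 309.9 and 377 RPKM in Cort-/- against 219, 256 and 290.0 RPKM in Cort+/+ libraries (log2 fold change 0.43 ± 0.15, limma FDR 0.346). The chemokine Ccl9 lay at 2.18 and 2.09 RPKM in Cort-/- against 1.13, 1.2 and 1.25 RPKM in Cort+/+ libraries (log2 fold change 0.79 ± 0.14, limma FDR 0.215). Il34, a ligand of the CSF1 receptor, lay at 0.827 and 0.884 RPKM in Cort-/- against 1.999, 2.29 and 1.55 RPKM in Cort+/+ libraries (log2 fold change -1.08 ± 0.21, limma FDR 0.239). Both chemokines were thus higher and the cytokine lower, each without overlap. Of 14 leukocyte adhesion molecules tested, 3 were lower and 2 were higher. Itga3, an integrin that binds laminin, lay at 75.1 and 68.7 RPKM in Cort-/- against 47.4, 56 and 58.5 RPKM in Cort+/+ libraries. Cd34, a sialomucin of endothelium, lay at 60.4 and 66.5 RPKM in Cort-/- against 43.1, 45 and 56.1 RPKM in Cort+/+ libraries. Alcam, which binds CD6 on T cells, lay at 5.58 and 3.97 RPKM in Cort-/- against 9.36, 7.09 and 7.01 RPKM in Cort+/+ libraries. Itga3 and Cd34 were higher and Alcam was lower in both Cort-/- libraries.

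Interferon-stimulated genes had the highest median of the pathway lists, 0.41 over 32 tested, with 2 higher and none lower at an unadjusted p under 0.05, against 5.42% of all genes tested on the higher side. This median rested on 1 library, since it was 0.00 without Cort-/- replicate 2 and 0.80 without Cort-/- replicate 1. Bst2, the antiviral membrane protein tetherin, lay at 113 and 158 RPKM in Cort-/- against 82.8, 97.1 and 114 RPKM in Cort+/+ libraries. Oas1a, a sensor of double-stranded RNA, lay at 1.89 and 3.42 RPKM in Cort-/- against 0.865, 1.17 and 1.61 RPKM in Cort+/+ libraries (log2 fold change 1.05 ± 0.35, limma FDR 0.341). In both genes Cort-/- replicate 2 was the highest library. Genes of MHC and antigen presentation had a median of 0.17 over 15 tested, with 1 lower and none higher, against 7.75% and 5.42%.

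In cholesterol synthesis, 11 of 28 tested were lower and none was higher at an unadjusted p under 0.05. The shares over all genes tested were 7.75% and 5.42%. The list had a median of -0.29 and no limma-voom call. Hmgcs1, an early enzyme of the pathway, lay at 20.1 and 18.2 RPKM in Cort-/- against 29.8, 27.4 and 22.9 RPKM in Cort+/+ libraries (log2 fold change -0.47 ± 0.13). The desaturase Scd1 lay at 17.3 and 13.7 RPKM in Cort-/- against 25.4, 25.3 and 19.6 RPKM in Cort+/+ libraries (log2 fold change -0.59 ± 0.16). In both of them Cort+/+ replicate 3 was the lowest of its group, and the groups did not overlap.

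Of 82 cytosolic ribosomal protein genes tested, 78 had a negative log2 fold change, with a median of -0.10. Both Cort-/- libraries lay below all Cort+/+ libraries for 43 of them, against 16.5% of all genes tested, and 6 were lower at an unadjusted p under 0.05, against 7.75%. Glycolysis enzymes had a median of -0.04 over 20 tested, with 6 lower and 1 higher, against 7.75% and 5.42% of all genes. Ldha, lactate dehydrogenase A, lay at 121 and 117 RPKM in Cort-/- against 155, 145 and 156 RPKM in Cort+/+ libraries (log2 fold change -0.35 ± 0.06, limma FDR 0.215). Respiratory chain genes had medians of -0.02 over 87 nuclear and 0.06 over 13 mitochondrial genes.

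Of 47 cell cycle and DNA replication genes tested, 12 were higher and 3 were lower at an unadjusted p under 0.05, against 5.42% higher and 7.75% lower among all genes tested. Both Cort-/- libraries lay above all Cort+/+ libraries for 22, against 16.2% of all genes tested, and the median was 0.15, with no limma-voom call. Ccnd1, the G1 cyclin D1, lay at 249.5 and 231 RPKM in Cort-/- against 141, 173 and 212 RPKM in Cort+/+ libraries (log2 fold change 0.47 ± 0.18). Ccnd2, the related cyclin D2, lay at 96.5 and 84.7 RPKM in Cort-/- against 119, 109 and 110.1 RPKM in Cort+/+ libraries (log2 fold change -0.32 ± 0.08). Ccnd1 was thus higher and Ccnd2 lower, each without overlap. Cdk1, the mitotic kinase, lay at 13.7 and 13.7 RPKM in Cort-/- against 11, 12.2 and 11.1 RPKM in Cort+/+ libraries (log2 fold change 0.26 ± 0.07, limma FDR 0.293). Cdkn2a, the locus of the inhibitors INK4A and ARF, lay at 12.2 and 12.8 RPKM in Cort-/- against 19.4, 18.6 and 14.9 RPKM in Cort+/+ libraries (log2 fold change -0.49 ± 0.13). Cdk1 was higher and Cdkn2a was lower, also without overlap. Medians near that of all genes were seen for hypoxia targets (0.02 over 22 tested), NRF2 targets (-0.05 over 27), unfolded protein and integrated stress response genes (-0.03 over 28), p53 targets (0.01 over 27), immediate early genes (-0.04 over 26), lysosome and autophagy genes (-0.01 over 31), histone genes (0.05 over 35) and the circadian clock (-0.01 over 15). At an unadjusted p under 0.05, 5 were lower and 2 higher in each of the NRF2, unfolded protein and p53 lists. These counts were 5 and 1 for immediate early genes, 3 and 0 for hypoxia targets and 3 and 2 for histone genes. They were 2 and 2 for lysosome and autophagy genes and 1 and 1 for the clock. The shares over all genes were 7.75% and 5.42%. Of 28 unfolded protein genes, 11 lay below and 5 above all Cort+/+ libraries, against 16.5% and 16.2%.

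**Figure D4:**
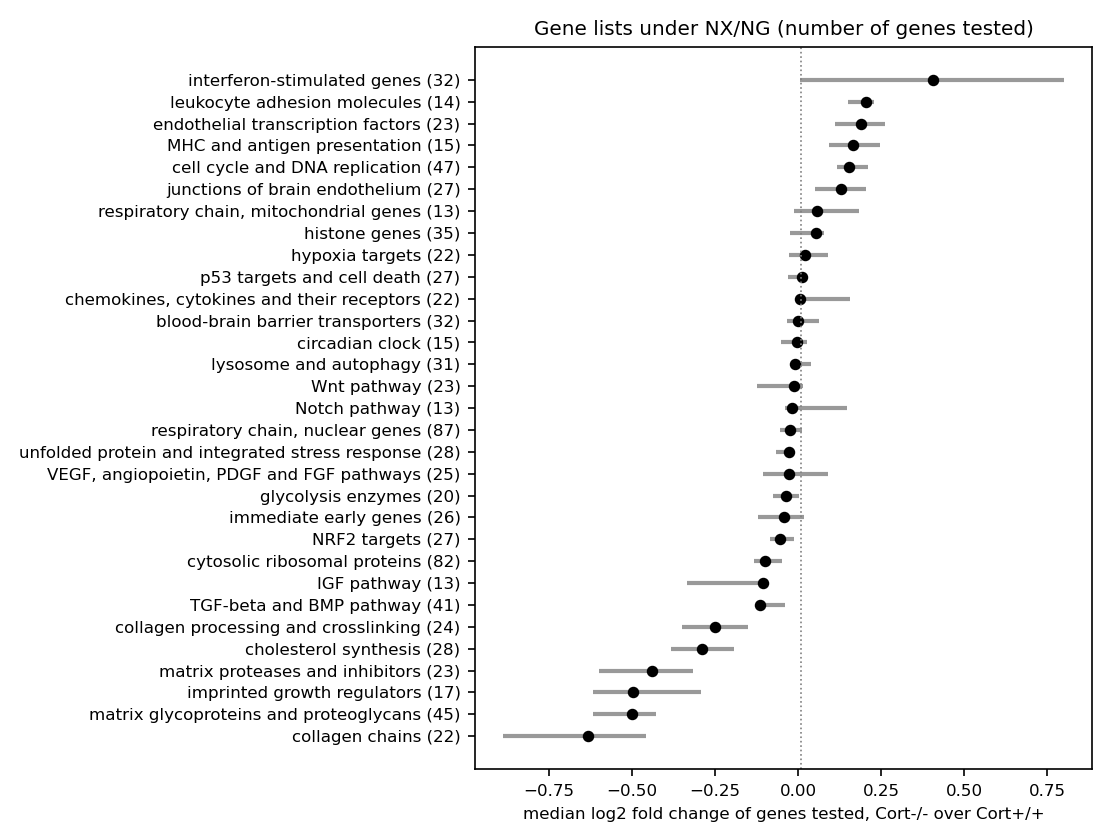
Median log2 fold change of Cort-/- over Cort+/+ BECs of each gene list (black points; number of genes tested in brackets) with the range of that median over the alternative settings (grey bars); the dotted line is the median of all genes tested. The matrix, imprinted and cholesterol lists lie below the line under every setting. So do, with main medians nearer to the line, the IGF, TGF-beta and BMP, ribosomal protein, NRF2, unfolded protein and glycolysis lists. The interferon list spans from 0.00 to 0.80.

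Genes near the targeted locus were compared with the rest of the genome, since a targeted allele is inherited together with its neighbouring segment. The genome build of the counts is not given in the sources used here, so positions were taken from GRCm38 (GENCODE vM21) by symbol, which gave 1 position for 13632 of the 14220 genes tested. Cort lies on chromosome 4 at 149125034-149126763. Within 10 Mb of Cort, the libraries did not overlap for 69 of 164 genes tested (42.1%), 44 lower and 25 higher, against 32.7% of all genes tested. The share was 49.4% of 81 genes within 5 Mb, 37.8% of 315 genes within 20 Mb and 31.9% of the 659 genes on the rest of chromosome 4. An unadjusted p under 0.05 was reached by 20.1% of the genes within 10 Mb, against 13.2% of all. At lower coordinates than Cort, 36 of 72 genes within 10 Mb did not overlap, and at higher coordinates 33 of 92. The difference between these shares was not tested.

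Tnfrsf1b, Pdpn and Zfp990, described above, lie 3.88, 5.83 and 3.59 Mb from Cort and are the 3 limma-voom calls within 10 Mb. Dffa, the inhibitor of the caspase-activated DNase, lay at 7.98 and 9.13 RPKM in Cort-/- against 4.9998, 6.08 and 5.53 RPKM in Cort+/+ libraries (log2 fold change 0.62 ± 0.11, limma FDR 0.215). Clcn6, a chloride transporter of late endosomes, lay at 5.73 and 5.03 RPKM in Cort-/- against 3.49, 3.63 and 3.17 RPKM in Cort+/+ libraries (log2 fold change 0.63 ± 0.10). Dffa and Clcn6 were higher in both Cort-/- libraries. Nppb, the natriuretic peptide BNP, lay at 2.9 and 2.62 RPKM in Cort-/- against 4.6, 4.77 and 4.44 RPKM in Cort+/+ libraries (log2 fold change -0.72 ± 0.09). The zinc finger pseudogene Znf41-ps lay at 0.0671 and 0.261 RPKM in Cort-/- against 2.03, 1.17 and 1.47 RPKM in Cort+/+ libraries (log2 fold change -2.72 ± 0.49). Both were lower. For Cenps, the tested gene nearest to Cort, the libraries of the genotypes overlapped. Loss of Cort and any other difference carried on the same chromosome segment cannot be told apart in these libraries.

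**Figure D5:**
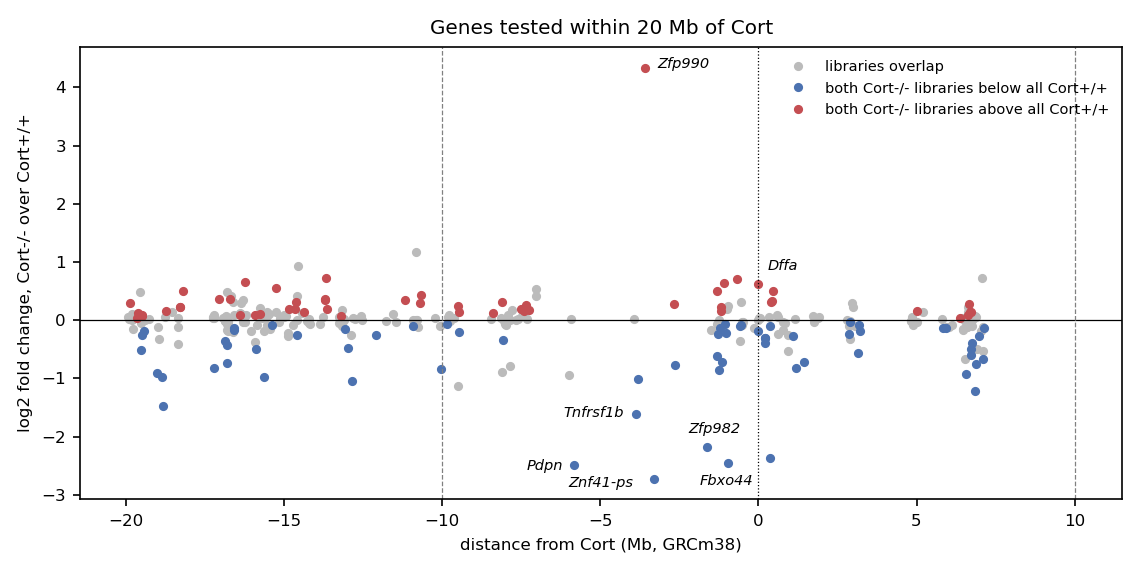
Log2 fold change of Cort-/- over Cort+/+ BECs for the 315 genes tested within 20 Mb of Cort, against distance from Cort in Mb (GRCm38); colours mark genes whose libraries do not overlap, and dashed lines mark 10 Mb. Zfp990 lies highest, at a height that depends on the pseudocount since its Cort+/+ values are 0, and Pdpn, Znf41-ps, Fbxo44 and Zfp982, at lower coordinates than Cort, and Gm13071, at higher ones (log2 fold change -2.38), are among the lowest.

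Values of the OGD-R libraries of the same genotypes, 2 Cort-/- and 3 Cort+/+, are given beside the leading genes as a description; the comparisons share no library. Of the 186 lower genes of at least 1 on the log2 scale with an OGD-R value, 147 (79.0%) were also lower in the OGD-R means, against 52.1% of all genes tested, and their median difference was -0.42. Of 56 such higher genes, 35 (62.5%) were also higher, beside the same 52.1% of all genes tested that were lower. The median of the highest NX/NG read count was 5 in this higher set, so many of its signs rest on few reads. Of the 69 non-overlapping genes within 10 Mb of Cort, 59 (85.5%) had the same sign after OGD-R, against 78.7% of the other non-overlapping genes. After OGD-R the log2 difference was -2.53 for Pdpn, -3.29 for Rab6b, -1.80 for Tnfrsf1b, 2.28 for Gm49980 and 1.56 for Eno1b. It was -0.43 for Col1a1, 0.04 for Col1a2, -0.40 for Col6a1, -0.17 for Aqp1, -0.19 for Cspg4 and -0.07 for Adamts1. The Cort-/- libraries after OGD-R differed from each other in the second set, with Aqp1 at 3.73 and 10.04, Adamts1 at 9.21 and 14.7, and Col6a1 at 41.2 and 67.3 RPKM. The difference between environments was not tested. The OGD-R values were normalized apart, and 2 of those libraries held almost no ribosomal reads (0.0775% and 0.0951% on Rn18s-rs5). The Cort-/- library with the higher Aqp1, Adamts1 and Col6a1 values is among them.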

How the data were processed

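Gene expression was measured by stranded mRNA-seq in 5 BEC libraries under NX/NG, 2 Cort-/- and 3 Cort+/+. The replicates are labelled as independent biological experiments. The labels and the study's methods differ in the library kit, the RNA input and the read length they name. The deposited tables, made by the authors with the reanalyzerGSE pipeline (edgeR is named in the submitters' processing notes), hold RPKM values and the gene length in bases. The aligner, the counter and the genome build are not given in the sources used here. The tables also hold comparison columns of the authors (fold changes and p-values) and 10 columns of expression categories per sample, none of which was used.

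RPKM times gene length came out as whole multiples of 1 step per library for 100% of the values (tolerance 0.05 of a step), which gave the reads on genes: 12386048 to 12389289 per library. How these totals came to be so nearly equal is not given in the sources used here. At that depth 3 reads, the limit that a count of 0 allows, amount to 0.114 to 0.13005 RPKM for a gene of 2000 bases, and such floors cover counting error only.

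The groups were compared with limma 3.58.1 in R 4.3.3 (moderated test with a trend, Benjamini-Hochberg FDR, threshold 0.05) on log2(RPKM + 0.1), for genes of at least 1 RPKM in at least 2 of the 5 libraries. Fold changes on this scale understate those of low genes. The scripts were tested on simulated data. The alternatives were a pseudocount of 1, all genes above 0, quantile normalization, median-ratio scaling, the replicate number as a block, limma-voom on the recovered reads, leaving out each library, and windows of 5 and 20 Mb around Cort. Further limma-voom fits were added after seeing the data.

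The samples, gene lists and marker lists were chosen with earlier results of these data known. The genes named are the cortistatin and somatostatin system; genes with an absolute log2 fold change of at least 1 and no overlap, by lowest p and by highest level; the limma-voom calls higher in Cort-/- and the 15 lower ones with the lowest p; of each list the members with the lowest p or the highest level; genes near Cort by lowest p; and genes that spread most within a genotype. Not all genes that this rule names are described, and some are not reported here. Cldn5, Col3a1, Col18a1, Eno1, Cenps, Gm13071, Fbxo44 and Zfp982 lie outside it and were chosen after their values were seen. Promoters came from RefSeq (GRCm38.p6).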

Additional observations from a re-analysis of the deposited data

How the results depend on the processing

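The main test called 0 genes at an FDR of 0.05 under each alternative that kept limma on log2 RPKM, including the replicate block and each fit without 1 library, and limma-voom on the recovered reads called 53. At an unadjusted p under 0.05 the main count of 1873 genes became 2235 by limma-voom and 2165 with the replicate block, and ranged from 954 to 2544 without 1 library. The share of these genes that were higher was 41.2%, and it ranged from 27.4% to 49.0% over the alternatives. The limma-voom count of 53 became 124 over all genes with a read, was 3, 5, 7, 13 and 882 without 1 library, in the order given in the report, and was 798 with the replicate block (all added after seeing the data); each of the 53 genes was also called in the 124, in the 798 and in the 882 without Cort+/+ replicate 3. Same-numbered libraries did not deviate together (correlations of -0.043 and -0.053). The deviations of the 2 Cort-/- libraries mirror each other, so this cannot settle whether the numbers pair the samples. Replicate 3 exists only in Cort+/+, so the block takes it out of the contrast, and the limma medians of the gene lists with the block equal those without Cort+/+ replicate 3. Without a Cort-/- library the lone one is assumed to vary like the Cort+/+ libraries. The libraries did not overlap for 4656 genes, for 4622 after quantile normalization and for 6946 of all genes above 0. Of the named genes with a fitted fold change, 98 kept their direction in every alternative and 3 did not. These varied widely between the libraries of a genotype: without 1 library the log2 fold change ranged from -4.76 to 0.71 for Col10a1, from -1.58 to 1.56 for Igfbp2, which was 0.092 with a pseudocount of 1, and from -0.65 to 0.91 for Krt18. Short RNAs and genes with few reads are limited by depth, and near copies by the unknown counting.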
